A study of Danio rerio with 4 samples.

Results

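The comparison described here is between zebrafish (Danio rerio) embryos in which morpholinos, antisense oligomers, were directed at rbm14a and rbm14b and embryos injected with a control morpholino, both collected at 10 hours post fertilization (hpf), the end of gastrulation. Its members are all genes with at least 5 TPM (a length-scaled transcript abundance that sums to 1000000 per library) in either 10 hpf library, which gave 7321 of the 28697 gene symbols in the deposited tables. The rbm14 embryos received 8 ng of morpholino, 4 ng for each paralog, and the control embryos 8 ng of control morpholino, in 2 nl at the one-cell stage. All embryos of both groups were also given 300 pg of GFP mRNA as an injection marker, and no strain, mutant allele or uninjected group is named in the labels. Each library came from poly(A) RNA of 50 pooled embryos, with 1 library per treatment at 10 hpf and 1 per treatment at 24 hpf. With 1 pool a side there is no replicate error and no test, so every difference below is between a pair of libraries.

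Rbm14 is an RNA-binding protein with RNA recognition motifs and a prion-like domain, known in mammalian cells as a transcriptional coactivator, a splicing regulator and a component of paraspeckles, which are nuclear bodies built on a noncoding RNA. The series addresses its part in dorsoventral patterning of the zebrafish embryo. In that process the dorsal organizer secretes antagonists of BMP, Nodal signals induce mesoderm and endoderm, and BMP signals specify ventral and epidermal fates. By the end of gastrulation the germ layers are in place, convergence and extension movements have narrowed the axis, and the first neural and segmental genes are expressed.

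The labels do not say whether the morpholinos block translation or splicing, and the levels of the target mRNAs do not measure the loss of protein. Summed over its transcripts, rbm14a stood at 254 TPM in the rbm14 library, against 169.9 TPM in the control library, and rbm14b at 19.3 TPM in the rbm14 library, against 28.8 TPM in the control library. The composition of rbm14b differed, since its minor transcript ENSDART00000160709 held 23.7% of the gene's TPM in the rbm14 library and 3.33% in the control library. As a check of the stage, the blastula and gastrula factor pou5f3 had 1396 TPM in the rbm14 and 1240 TPM in the control library at 10 hpf and 5.1 and 4.25 TPM in the same order at 24 hpf. The muscle actin gene actc1b had 6.18 TPM in the rbm14 and 6.55 TPM in the control library at 10 hpf, far under its 3164 and 3907 TPM at 24 hpf. In the rbm14 library 6305 genes reached 5 TPM, and 7120 did in the control library. The 10 most abundant genes held 24.0% of all TPM in the rbm14 library and 24.4% in the control library. Sequencing depth is unknown because TPM does not keep it. In pooled whole embryos, fewer cells of a type and less RNA per cell cannot be told apart.

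The libraries were brought to a common scale with a trimmed mean of log2 ratios, and a log2 ratio here is that of the scaled rbm14 TPM + 0.5 over the scaled control TPM + 0.5. A gene was counted as higher or lower when this ratio was at least 2-fold and its larger value at least 5 TPM. Of the 7321 genes, 261 (3.57%) were higher and 407 (5.56%) lower in the rbm14 library, 668 (9.12%) in all. Most genes were close to equal: 5409 genes (73.9%) differed by less than 1.5-fold, and only 37 were at least 4-fold higher and 44 at least 4-fold lower. The median ratio over all members was 0.055, with quartiles of −0.31 and 0.38. Higher genes made up 39.1% of all counted. That share was 18.7% (155 higher, 676 lower) without rescaling, 57.5% (126 and 93) with a pseudocount of 5 TPM, and 56.6% (112 and 86) with a minimum of 20 TPM, so which direction holds more genes depends on these settings. The rescaling removed a shift of −0.25 in log2, and without it the median over all members was −0.19.

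The ratio varied with the level. Among the 1910 genes whose larger value lay between 5 and 10 TPM, 97 were higher and 197 lower, with a median ratio of −0.18. Among the 1126 genes of 100 TPM or more, 35 were higher and 16 lower, with a median of 0.35. A list of abundant genes therefore has a positive median where its members behave like other genes of their level, and medians below are read beside these values.

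**Figure D1:**
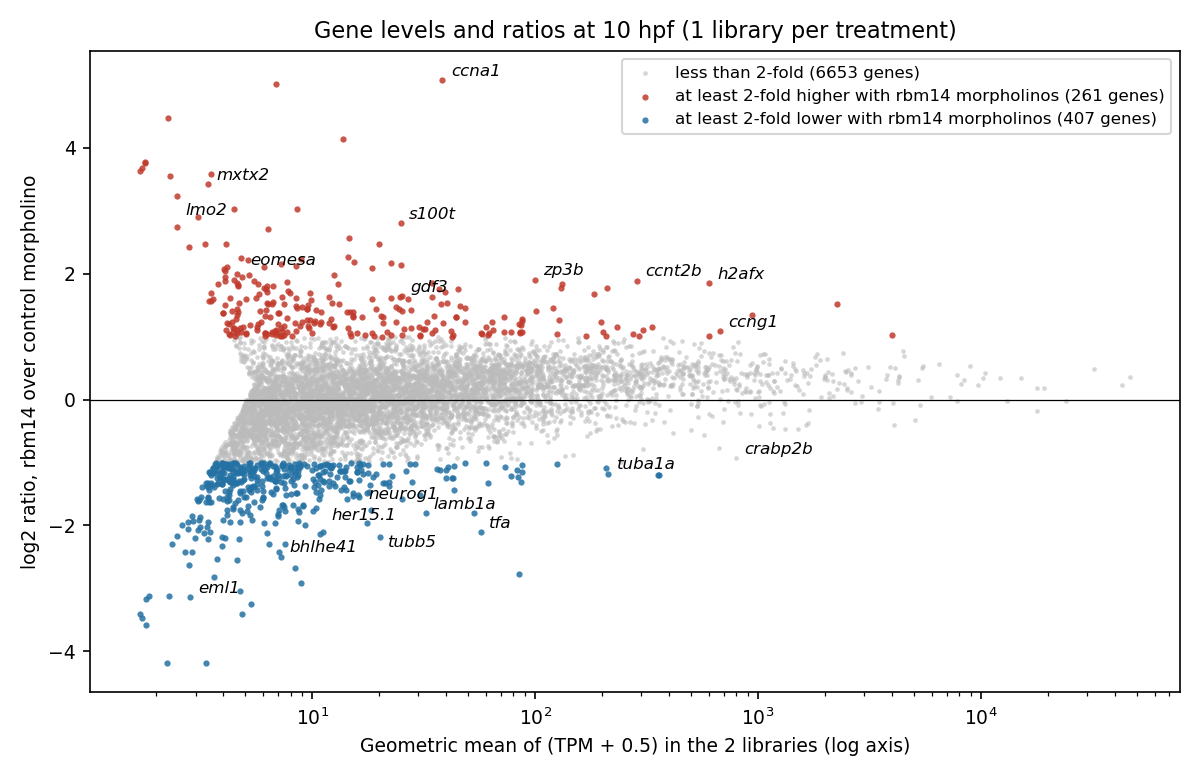
Each point is 1 of the 7321 genes, with its mean level in the 10 hpf libraries on a log axis and the log2 ratio of the rbm14 over the control library; red points are at least 2-fold higher and blue points at least 2-fold lower with the rbm14 morpholinos. The cloud leans upward to the right, with a median ratio of −0.18 for the least abundant genes and 0.35 for the most abundant.

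Nodal pathway genes were the axis list with the most members on the higher side. Of 12 members with at least 5 TPM, 5 were higher and none was lower, with a median of 0.88 (0.65 without rescaling). The T-box gene eomesa, an activator of mesendoderm genes, had 8.31 TPM in the rbm14 and 2.16 TPM in the control library, a 3.86-fold difference. The gene for Vg1, the maternal TGF-beta ligand that pairs with Nodal proteins and is named gdf3 in the tables, had 40.7 TPM in the rbm14 and 15.09 TPM in the control library, a 3.13-fold difference. The endoderm homeobox gene mixl1 had 9.78 TPM in the rbm14 and 5.27 TPM in the control library (2.096-fold), and the type I receptor gene acvr1ba had 80.3 and 46.8 TPM in that order (2.03-fold). Both ended below 2-fold without rescaling.

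The Nodal ligand genes lay just under the limit or below it. The ligand gene ndr1 (squint) had 5.47 TPM in the rbm14 and 2.99 TPM in the control library and lay just outside the limit on the higher side (1.996-fold), as did lhx5, a LIM homeobox gene at 30.02 and 17.6 TPM. The ligand gene ndr2 (cyclops) had 26.6 TPM in the rbm14 and 18.3 TPM in the control library (log2 ratio 0.77). The coreceptor gene tdgf1 (one-eyed pinhead) had 85.7 and 68.7 TPM in that order (0.57), and foxh1, the DNA-binding partner of Smad2, had 369.5 and 292.5 TPM (0.59). The lefty genes, targets and antagonists of Nodal signalling, were also on the higher side, lft1 at 125 TPM in the rbm14 and 60.7 TPM in the control library (1.28) and lft2 at 62.5 and 41.1 TPM (0.85). Just inside the limit of 2-fold lay metap1 and cry1ba, and on the lower side fam210b and znf1066 lay just inside and bhmt and dhrs13b just outside.

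Endoderm genes beyond mixl1 did not follow the Nodal list. Of 13 members 1 was higher and none lower, with a median of 0.11 that lay below 0 without rescaling. The endoderm determinant sox32 (casanova) had 471 TPM in the rbm14 and 360.3 TPM in the control library (0.64). Its target sox17 had 51.5 TPM in the rbm14 and 67.5 TPM in the control library (−0.14), and gata6 had 141 and 178 TPM (−0.09).

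The organizer lists were mostly between the limits. Of 11 organizer transcription factor genes lhx1a alone was higher, and the median was 0.39, close to the 0.35 of genes of 100 TPM or more. Of 9 secreted organizer antagonists lft1 and nog1 were higher, with a median of 0.55. Without rescaling nog1 ended just below 2-fold (log2 ratio 0.99) and the median was 0.30. The median was 0.33 once the trend of ratio with level was removed. The notochord homeobox gene noto had 265.5 TPM in the rbm14 and 184 TPM in the control library (0.78), and foxa3 had 397 and 317 TPM (0.58). The neural and endodermal regulator otx1b had 270.4 and 245 TPM (0.39), and otx2 had 173 and 212 TPM (−0.04), so ratios within the list fell on either side of the median of all genes. Follistatin, an inhibitor of activin and BMP ligands encoded by fsta, went the other way with 6.35 TPM in the rbm14 and 11.4 TPM in the control library (−0.55).

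On the BMP side hardly any gene reached 2-fold. None of the 5 ligand and receptor genes with at least 5 TPM was higher or lower, the median being 0.19, and −0.06 without rescaling. Of 10 modulator and Smad genes 1 was lower, and of 20 ventral and BMP target genes 1 was lower. The medians of those lists were −0.16 and −0.12. The lower target gene was id4, an inhibitor of bHLH factors, with 4.82 TPM in the rbm14 and 15.7 TPM in the control library, a 2.59-fold difference. Its relatives id1, with 3148 TPM in the rbm14 and 3268 TPM in the control library (0.20), and id3, with 294 and 404 TPM (−0.21), were between the limits. The Smad genes lay on both sides of equal. The inhibitory smad7 had 14.3 TPM in the rbm14 and 10.3 TPM in the control library (0.70). Of the BMP-activated Smad genes, smad5 had 65.9 TPM in the rbm14 and 63.5 TPM in the control library (0.30), smad9 had 7.18 and 11.3 TPM (−0.38) and smad1 had 3.86 and 6.09 TPM (−0.37).

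**Figure D2:**
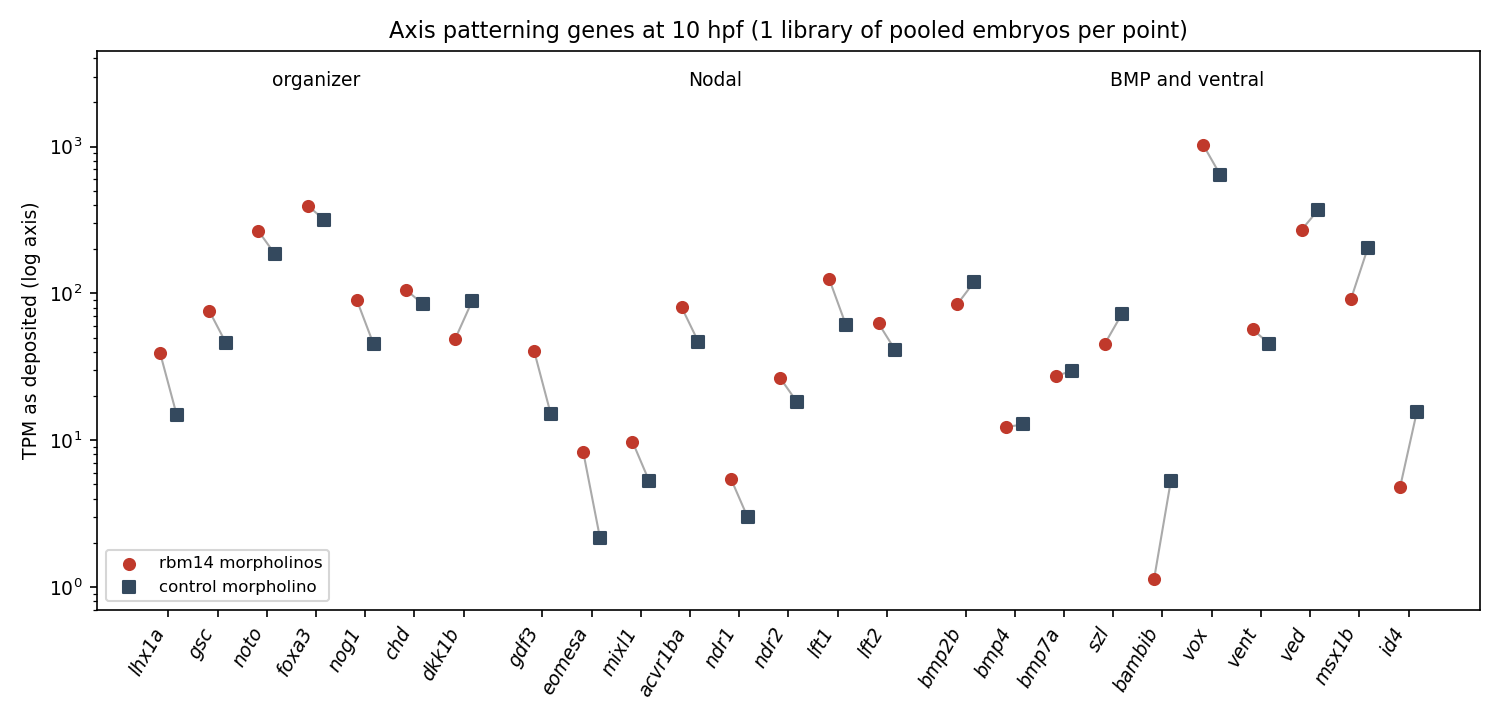
TPM on a log axis of 25 axis patterning genes at 10 hpf, in the rbm14 library (circles) and the control library (squares), 1 library of pooled embryos per point. The genes chosen for the Nodal group, which include lft1 and lft2 of the antagonist list, all lie higher in the rbm14 library, by 3.86-fold for eomesa. Of the 12 members of the Nodal list, 1 that is not shown had a negative ratio (−0.03). The BMP and ventral group points both ways, with vox above and id4 and msx1b below the control.

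Axial and presomitic mesoderm genes were largely between the limits. Of 6 notochord and floor plate genes none was higher and the matrix gene emilin3a was lower, at 2.43 TPM in the rbm14 and 6.36 TPM in the control library. Once the trend with level was removed, emilin3a was not counted as lower. The other 5 had positive ratios under 2-fold, among them shha, the floor plate and notochord signal, with 14.3 TPM in the rbm14 and 11.5 TPM in the control library (0.55). The list median was 0.59 (0.34 without rescaling, 0.40 after removing the trend with level). Of 37 presomitic and tailbud genes 1 was higher and 2 lower, and the median of 0.15 became −0.10 without rescaling. The higher gene was efnb2a, an ephrin ligand of somite borders and arteries, with 37.5 TPM in the rbm14 and 16.4 TPM in the control library, a 2.66-fold difference. The segment border genes ripply1 (94.1 TPM in the rbm14 and 56.6 TPM in the control library, log2 ratio 0.98) and pcdh8 (91.2 and 60.3 TPM, 0.84) stayed under 2-fold. Of the segmentation clock genes, her1 had 102.5 TPM in the rbm14 and 69.8 TPM in the control library (0.80) and her7 had 211 and 182 TPM (0.46).

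The lower members of that list were her15.1 and her15.2, Hes5-type targets of Notch signalling. The gene her15.1 had 4.46 TPM in the rbm14 and 24.7 TPM in the control library, a 4.32-fold difference, and her15.2 had 6.50 and 19.8 TPM, a 2.45-fold difference. A further member of the family, her12, had 10.99 TPM in the rbm14 and 25.4 TPM in the control library (−0.93). The genes her15.1 and her15.2 are near-identical, so how reads were divided between them is uncertain, but the values of both were lower.

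Of 18 Notch and proneural genes none was higher and 3 were lower, namely her15.1, neurog1 and olig4. Ratios were above 0 for 10 of the 18, and the median was 0.12, or −0.135 without rescaling and −0.21 once the trend with level was removed. The proneural gene neurog1, which drives formation of the first neurons, had 8.18 TPM in the rbm14 and 28.9 TPM in the control library, a 2.87-fold difference. The bHLH gene olig4 had 38.5 TPM in the rbm14 and 93.0 TPM in the control library, a 2.02-fold difference. Outside that list, the atonal-type gene atoh1c, among the 20 named genes of lowest ratio, had 2.29 and 13.8 TPM in that order. The Notch ligand genes dld (deltaD) and dla (deltaA) were not lower: dld had 274 TPM in the rbm14 and 197 TPM in the control library (0.73), and dla had 25.9 and 19.6 TPM (0.64).

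Tubulin genes leaned low as a family. All 11 with at least 5 TPM had negative ratios (all but the gamma-tubulin gene tubg1 once the trend with level was removed), 4 were lower by at least 2-fold, none was higher, and the median was −0.45 (−0.64 after removing the trend with level). The beta-tubulin gene tubb5 had 8.21 TPM in the rbm14 and 46.2 TPM in the control library, a 4.53-fold difference. The alpha-tubulin gene tuba1a had 129 TPM in the rbm14 and 348 TPM in the control library (2.26-fold), tuba1b had 7.11 and 26.4 TPM (2.99-fold), and tuba4l had 9.45 and 32.2 TPM (2.78-fold). The tubulins of highest level were closest to equal, tuba8l4 with 3155 TPM in the rbm14 and 3837 TPM in the control library (−0.03) and tubb2b with 2625 and 3215 TPM (−0.04). Tubulin coding sequences are alike, so the split between members is uncertain. The deposited TPM summed over the 11 genes was 7170.3 in the rbm14 and 9479.5 in the control library, before the shift of −0.25 (log2) between the libraries is removed.

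Hox genes were on the lower side at this stage, with 1 past 2-fold. Only 5 of 48 Hox genes reached 5 TPM, and all 5 had negative ratios (hoxc6a turned to 0.11 once the trend with level was removed), with a median of −0.71. The hindbrain gene hoxb1a was lower, with 2.24 TPM in the rbm14 and 6.26 TPM in the control library (2.12-fold), but was not counted as lower once the trend with level was removed. Its paralog hoxb1b, the earliest and most abundant Hox gene here, had 127.95 TPM in the rbm14 and 227 TPM in the control library (−0.58). The Hox cofactor genes meis3 (2.96 TPM in the rbm14 and 7.11 TPM in the control library, log2 ratio −0.91) and meis2b (5.49 and 11.4 TPM, −0.75) and the hindbrain regulator gbx1 (97.1 and 159 TPM, −0.46) had negative ratios, and the Hox cofactor gene pbx4 a positive one (48.0 and 46.1 TPM, 0.31). The tailbud regulator cdx4 was near equal, with 534 TPM in the rbm14 and 578 TPM in the control library (0.14). Among the 9 posterior regulators none passed 2-fold in either direction, 3 had ratios above 0 and the median was −0.10.

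Retinoic acid, a signal that patterns the hindbrain and activates early Hox genes, is made by aldh1a2 and broken down by cyp26a1. Both genes were near equal between the libraries, aldh1a2 with 33.5 TPM in the rbm14 and 29.95 TPM in the control library (0.41) and cyp26a1 with 546 and 529 TPM (0.30). The retinoic acid-binding protein gene crabp2b was the exception, with 528 TPM in the rbm14 and 1193 TPM in the control library. Its log2 ratio of −0.92 was under 2-fold after rescaling, although it was the largest difference of the 10 genes in the list. None of the 10 was counted as higher or lower.

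Anterior neural genes showed no such lean. Of 18 anterior neural plate and eye field genes none was higher or lower, and the median was 0.21, or −0.04 without rescaling. The eye field gene rx3 had 35.3 TPM in the rbm14 and 26.9 TPM in the control library (0.63), and six3b had 40.9 and 39.6 TPM (0.30). Of 13 midbrain-hindbrain boundary genes none was higher or lower and the median was −0.25. The SoxB1 and pluripotency list had no gene past 2-fold among 19, with a median of 0.29. The pluripotency factor nanog was its highest member, at 42.0 TPM in the rbm14 and 25.9 TPM in the control library (0.93).

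At the neural plate border 3 of 25 genes were lower and 1 was higher, with a median of −0.06. The crest and cartilage regulator sox9a had 5.52 TPM in the rbm14 and 17.1 TPM in the control library (2.47-fold), and the Snail gene snai1b had 1.72 and 5.29 TPM (2.25-fold). The remaining lower gene was olig4, given above. The crest specifier foxd3 had 225 TPM in the rbm14 and 162 TPM in the control library (0.72), and tfap2a had 160.5 and 225 TPM (−0.23).

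Genes of convergence, extension and cell movement included some of the larger differences in extracellular matrix. Of 48 members none was higher and 3 were lower, with a median of 0.23, or −0.02 without rescaling. The laminin chain gene lamb1a had 15.4 TPM in the rbm14 and 65.2 TPM in the control library, a 3.49-fold difference, while its partner chain lamc1 was near equal at 29.5 and 27.2 TPM (0.36). Fibronectin fn1b had 3.38 TPM in the rbm14 and 11.7 TPM in the control library (2.69-fold), but with only the most abundant transcript of the gene the ratio changed sign, to 0.22. Its paralog fn1a had 33.2 and 54.4 TPM (−0.45). None of the 50 collagen genes reached 5 TPM.

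Among the non-canonical Wnt components that steer these movements, the ligand gene had the lowest ratio. It is named wnt11 in the tables and had 54.2 TPM in the rbm14 and 124.5 TPM in the control library, a log2 ratio of −0.94, which is just under 2-fold. Among core polarity genes, vangl2 (44.3 TPM in the rbm14 and 45.7 TPM in the control library, log2 ratio 0.20) and prickle1b (39.8 and 38.9 TPM, 0.28) were near equal, while prickle2b had 3.95 and 8.91 TPM (−0.85, or −1.08 without rescaling). The heparan sulfate proteoglycan gene gpc4 had 42.5 TPM in the rbm14 and 37.5 TPM in the control library (0.42). The apelin receptor genes were somewhat above, aplnra with 747 TPM in the rbm14 and 529.6 TPM in the control library (0.75) and aplnrb with 711 and 506 TPM (0.74). Of 23 Wnt ligand and feedback genes none passed 2-fold, and the median was 0.28. The feedback inhibitor axin2 was its highest member, with 36.7 TPM in the rbm14 and 24.0 TPM in the control library (0.85).

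Of 19 FGF ligand and feedback target genes 1 was higher and none lower. Their median of 0.25 became 0.003 without rescaling and 0.04 once the trend with level was removed. The higher gene was the AP-1 subunit fosab, with 29.0 TPM in the rbm14 and 12.3 TPM in the control library (2.72-fold). Feedback phosphatases followed at less than 2-fold, dusp1 with 481 TPM in the rbm14 and 289 TPM in the control library (0.98) and dusp4 with 42.8 and 27.2 TPM (0.89), whereas the target etv4 was near equal at 37.2 and 39.5 TPM (0.16). Among 8 ephrins and Eph receptors efnb2a was the higher member, no gene was lower and the median was 0.53.

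Epidermal genes as a list resembled all genes. Of 49 members 2 were higher and 1 lower, and the median of 0.21 became −0.05 without rescaling. The keratin gene krt4, an enveloping layer marker, had 8567 TPM in the rbm14 and 8180 TPM in the control library (0.32), and krt5 had 4134 and 6148 TPM (−0.32). The junction gene cldnb had 780.2 TPM in the rbm14 and 462 TPM in the control library, a 2.01-fold difference that was below 2-fold without rescaling. The protease inhibitor gene spint1b had 5.70 TPM in the rbm14 and 2.57 TPM in the control library (2.35-fold). Of 14 claudins and junction genes 3 were higher and 1 lower.

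Genes of the yolk syncytial layer, the nuclear layer that feeds yolk to the embryo, fell into groups. Of 25 members 1 was higher and 5 were lower, with a median of −0.16. Apolipoprotein A-I, apoa1a, had 217 TPM in the rbm14 and 594 TPM in the control library (log2 ratio −1.20), and serpina1, a secreted protease inhibitor, had 9.01 and 26.9 TPM (2.44-fold). Its relative serpina1l and the genes tfa and apoba were the other 3 lower members. The apolipoprotein B gene apoba had 1.14 TPM in the rbm14 and 5.16 TPM in the control library (−1.58). Other apolipoprotein genes were between the limits. Of these, apoeb had 11938 TPM in the rbm14 and 14405 TPM in the control library (−0.02) and apoc2 had 82.9 and 70.6 TPM (0.48). Microsomal triglyceride transfer protein mtp, which loads lipoproteins, had 436 TPM in the rbm14 and 334 TPM in the control library (0.64).

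The early yolk layer regulators did not share that direction. The homeobox gene mxtx2 had 9.99 TPM in the rbm14 and 0.61 TPM in the control library, and mxtx1 had 57.4 and 42.8 TPM (0.67). The lysosome list shared cd63 with the prechordal and hatching gland list, of whose 11 members 2 (cd63 and the hatching enzyme he1b) were lower and none higher. The gene he1b had 5.97 TPM in the rbm14 and 17.8 TPM in the control library. Its homologue he1a was near equal at 15.9 and 16 TPM, so the listed values did not differ alike. The split of reads between such homologues is uncertain.

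Blood and lateral plate genes were few at this stage. Of 13 members lmo2 was higher and 2 globins, hbae3 and hbbe1.1, were lower. The globin gene hbae3 had 3.54 TPM in the rbm14 and 10.5 TPM in the control library, and another, hbbe3, had 5 and 9.66 TPM (−0.65). Globin genes have close copies, and the split of reads between such copies is uncertain. The levels at 10 hpf are small beside those of the 24 hpf control library, 3809 TPM for hbae3 and 4316 TPM for hbbe3. Among 4 primitive myeloid genes, the actin-bundling gene lcp1 was lower, at 24.9 TPM in the rbm14 and 70.6 TPM in the control library, and rac2 was higher, at 6.87 and 3.30 TPM. Without rescaling rac2 ended just below 2-fold (log2 ratio 0.96). Of 3 pigment lineage genes, 5 myogenic genes and 3 pronephros genes, only lhx1a in the pronephros list passed 2-fold.

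**Figure D3:**
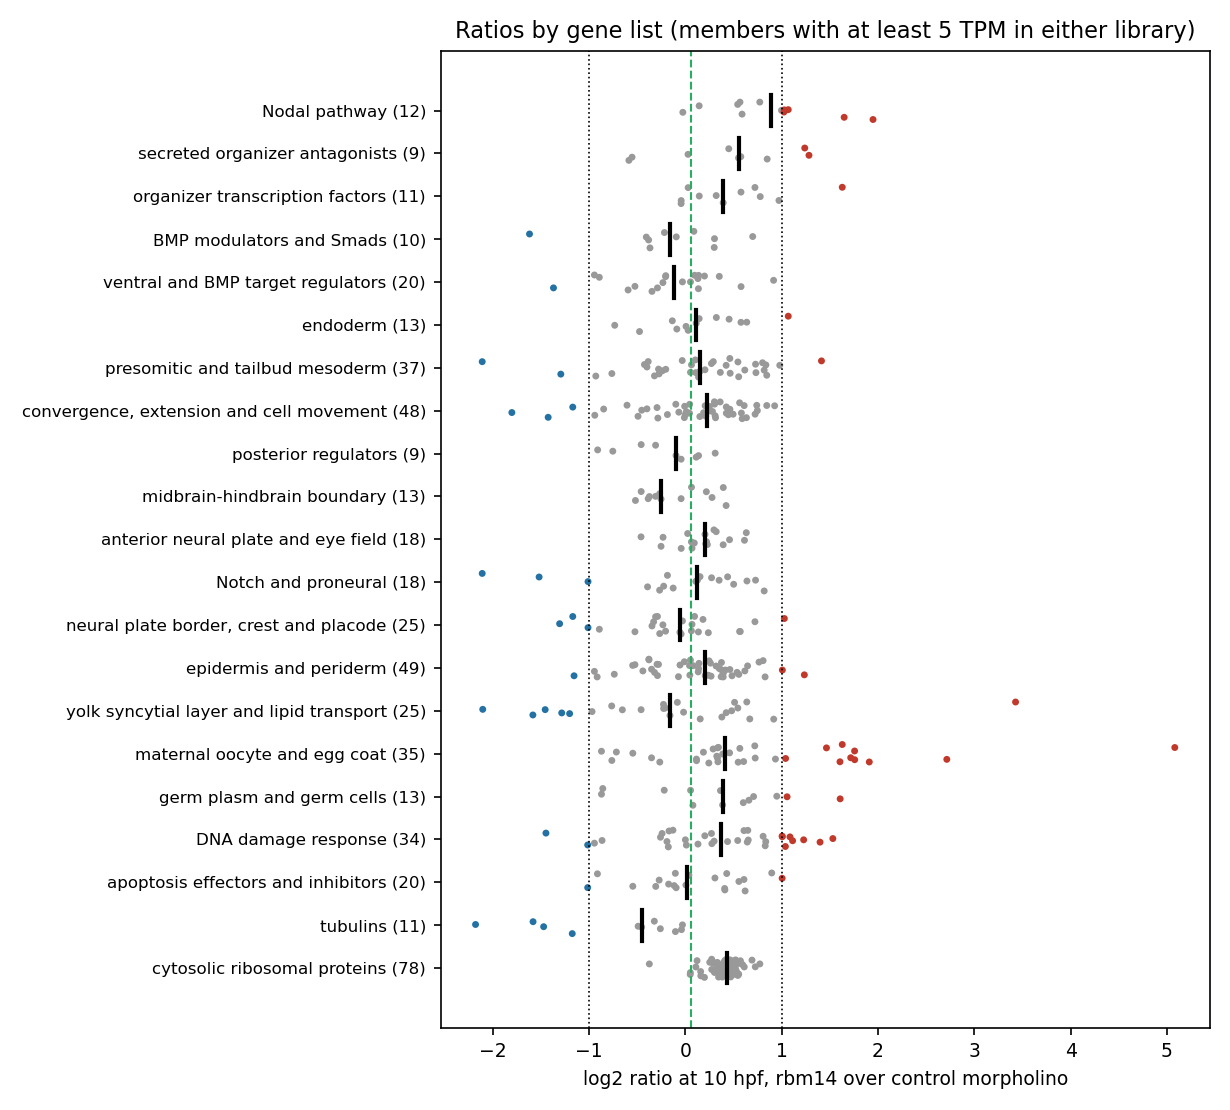
Each point is a gene with at least 5 TPM in either library, placed by its log2 ratio of the rbm14 over the control library at 10 hpf, with the number of such genes in brackets; black bars are list medians, the dashed line is the median of all 7321 genes (0.055), and dotted lines mark 2-fold. The Nodal median is 0.88, the tubulin points all lie below 0 (tubg1 does not once the trend with level is removed) with a median of −0.45, and the ribosomal protein genes are packed around 0.43.

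Maternal transcripts made up the list with the most higher members. Of 35 oocyte and egg coat genes 10 were higher and none lower, with a median of 0.41 (0.16 without rescaling, 0.34 after removing the trend with level). The cyclin gene ccna1, known for its role in germ cells, had 205 TPM in the rbm14 and 6.68 TPM in the control library, a 33.9-fold difference and the largest ratio of any named gene above 0 TPM in both libraries. The egg coat glycoprotein genes zp2l1 (55.0 and 20.8 TPM with the rbm14 and control morpholinos, 3.09-fold) and zp3d.1 (10.0 and 3.15 TPM, 3.38-fold) and the larp6b gene, named zgc:162969 in the tables (14.5 and 2.17 TPM, 6.56-fold), were higher. Other egg coat genes were not, zp3.2 with 81.3 TPM in the rbm14 and 81.7 TPM in the control library (0.24) and zp2.1 with 12.0 and 23.8 TPM (−0.72). The zona pellucida genes have close copies and their split is uncertain.

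Germ cell genes were also on the higher side. Of 13 members 2 were higher and none lower, with a median of 0.39 (0.13 without rescaling, 0.38 after removing the trend with level). The piRNA pathway helicase gene tdrd9 had 20.6 TPM in the rbm14 and 11.5 TPM in the control library (2.08-fold). Without rescaling tdrd9 ended below 2-fold (log2 ratio 0.81), and the other higher gene stayed past it. The germ cell helicase vasa, ddx4, had 35.1 TPM in the rbm14 and 21.4 TPM in the control library (0.95), and the germ cell gene nanos3 had 80.3 and 62.9 TPM (0.60). Between the control libraries, which share the 10 hpf control library with the comparison above, zp3b was lower at 24 than at 10 hpf (−4.43) and her15.1 (3.31) and hoxb1a (2.92) were higher, so that each differed at 10 hpf with the rbm14 morpholinos in the direction of the earlier stage. Other genes past 2-fold at 10 hpf differed in the direction of the later stage. These include eomesa (3.46) and lmo2 (3.90), higher at 10 hpf with the rbm14 morpholinos and higher at 24 hpf in the controls, and lcp1 (−4.79), tuba4l (−2.26) and lamb1a (−1.59), lower in both. Both ratios of a gene have its 10 hpf control value as denominator, so an error in that value moves them the same way. That value was 2.16 TPM for eomesa and 0.36 TPM for lmo2. All these genes are examples, and the counted genes were not tallied by direction. The part of any difference in developmental progress between the 10 hpf pools was not tested.

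Genes of the DNA damage response, a list of repair, growth arrest and stress-induced cell death genes, were more often higher than lower after rescaling. Of 34 members 8 were higher and 2 lower, with a median of 0.37 (0.12 without rescaling, 0.40 after removing the trend with level). The repair gene xpc, which recognises damaged DNA in nucleotide excision repair, had 12.2 TPM in the rbm14 and 5.89 TPM in the control library (2.34-fold), and its partner ddb2 had 9.08 and 5.11 TPM (2.01-fold). The growth arrest genes gadd45ba (411 TPM in the rbm14 and 226 TPM in the control library, 2.16-fold) and gadd45bb (165 and 95.2 TPM, 2.05-fold) were higher beside gadd45aa, phlda3, ccng1 and bbc3. Without rescaling only gadd45aa and phlda3 of the higher genes stayed past 2-fold. The 2 lower genes, given below, stayed past 2-fold without it, so the excess of higher genes depends on the rescaling.

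Other genes of the list were lower or near equal. The stress-induced sestrin gene sesn2 had 2.15 TPM in the rbm14 and 7.93 TPM in the control library (2.73-fold lower), and the pro-apoptotic gene pmaip1 (Noxa) had 9.19 and 22.7 TPM (2.02-fold lower). The ubiquitin ligase gene mdm2 had 58.2 TPM in the rbm14 and 38.8 TPM in the control library (0.83), and its relative mdm4 had 4.78 and 10.8 TPM (−0.87). Of 20 apoptosis genes 1 was higher and 1 lower, with a median of 0.02. The executioner caspase genes casp3a (14.7 TPM in the rbm14 and 25.8 TPM in the control library, log2 ratio −0.55) and casp6 (4.68 and 10.98 TPM, −0.91) were on the lower side.

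The other stress lists were mixed. Of 43 heat shock and unfolded protein genes 2 were higher and 2 lower. The glutathione-degrading enzyme gene chac1, a target of the integrated stress response, had 318 TPM in the rbm14 and 169 TPM in the control library (2.24-fold). The ER chaperone calr had 7.52 and 3.57 TPM (2.31-fold). These 2 higher genes ended below 2-fold without rescaling (log2 ratios of 0.91 and 0.98). The ER cochaperone dnajb9b was lower, at 2.35 TPM in the rbm14 and 17.3 TPM in the control library (5.34-fold). The ER transcription factor xbp1 was near equal, with 493 TPM in the rbm14 and 588 TPM in the control library. Of 19 immediate early and inflammatory genes 1 (fosab) was higher and 1 (socs3b) lower, and of 16 glycolysis and hypoxia genes 1 was higher and 2 were lower.

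Chromatin and cell cycle genes included large differences at high level. The histone variant gene h2afx, which encodes H2A.X, had 1049 TPM in the rbm14 and 346 TPM in the control library, a 3.61-fold difference. The linker histone gene h1f0 was lower, with 130.1 TPM in the rbm14 and 329.96 TPM in the control library (2.13-fold), and the macroH2A gene h2afy had 46.4 and 104 TPM (−0.91). Of the 14 listed histone genes 1 was higher and 1 lower. The histone H4 gene HIST1H4B, which the list did not hold, had 32.2 TPM in the rbm14 and 6 TPM in the control library (5.95-fold). How well libraries of poly(A) RNA measure such a histone mRNA was not tested. Of 65 mitosis and cyclin genes 4 were higher and 1 lower. The securin gene pttg1 had 104 TPM in the rbm14 and 49.7 TPM in the control library. The anaphase activator cdc20 had 103 and 58.3 TPM (log2 ratio 1.07, or 0.82 without rescaling). Of 56 DNA replication genes none was higher and the thymidine kinase gene tk1 was lower, at 13.2 TPM in the rbm14 and 37.4 TPM in the control library (2.33-fold).

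Genes of RNA processing, the class to which rbm14 belongs, were near the level of other abundant genes. Of 76 spliceosome, SR and hnRNP genes 1 was higher and none lower, with a median of 0.39 that became 0.12 after removing the trend with level. The higher gene was prpf3, a U4/U6 snRNP component, with 70.19 TPM in the rbm14 and 29.6 TPM in the control library (2.79-fold). None of 25 paraspeckle-type genes and rbm14 relatives passed 2-fold, the median being 0.20 (−0.05 without rescaling). The paraspeckle protein gene nono had 1094 TPM in the rbm14 and 897 TPM in the control library (0.54). Of 82 nucleolar and ribosome assembly genes 2 were higher, mphosph10, a component of the U3 particle, with 222 and 76.7 TPM (3.43-fold), and heatr1, with 22.1 and 12.7 TPM (2.03-fold). Without rescaling heatr1 ended below 2-fold (log2 ratio 0.78).

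Housekeeping lists had few members past 2-fold. None of 78 cytosolic ribosomal protein genes, 78 nuclear respiratory chain genes, 13 mitochondrially encoded genes or 12 chaperonin genes was higher or lower. The ribosomal median of 0.43 became 0.10 after removing the trend with level. Of 61 mitochondrial ribosomal genes 3 were lower, of 67 translation factors 3 were higher and 1 lower, and of 40 proteasome genes 1 was lower. The 3 higher translation factor genes, eif2s1b, eif4eb and eif5, ended below 2-fold without rescaling. Of 107 numbered zinc finger genes 6 were higher and 9 lower, of 30 lysosome genes 1 was higher and 3 lower, of 12 cholesterol synthesis genes 1 was higher, and of 10 cilia and left-right genes 2 (gdf3 and foxj1b) were higher. Of the last pair, foxj1b ended below 2-fold without rescaling.

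Some smaller pathways held several of the larger ratios. Of 16 circadian clock genes 2 were higher and 3 lower. The repressor cryptochromes cry1aa (15.0 TPM in the rbm14 and 7.28 TPM in the control library, 2.35-fold) and cry1ba (54.4 and 32.1 TPM, 2.00-fold) were higher. Without rescaling both ended below 2-fold (log2 ratios of 0.99 and 0.75), as did cry1ba once the trend with level was removed. The lower genes were bhlhe41, a repressor that had 2.33 TPM in the rbm14 and 18.2 TPM in the control library, the clock output gene tefb, with 1.98 and 5.81 TPM, and cry4, with 2.72 and 10.7 TPM. Among 8 polyamine genes the catabolic enzymes were lower, the acetyltransferase gene sat1a.2 with 2.07 and 10.8 TPM (3.77-fold) and the spermine oxidase gene smox with 1.86 and 7.06 TPM (2.76-fold). The synthetic genes odc1 (468.5 TPM in the rbm14 and 601.5 TPM in the control library, log2 ratio −0.11), srm (76.6 and 80.7 TPM, 0.17) and amd1 (22.97 and 24.99 TPM, 0.13) were near equal.

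Genes with large ratios outside these lists included some of substantial level. The cyclin T2 gene ccnt2b, whose product is a subunit of the elongation factor P-TEFb, had 503 TPM in the rbm14 and 161 TPM in the control library, a 3.71-fold difference. The calcium-binding gene s100t had 60.1 TPM in the rbm14 and 9.78 TPM in the control library (6.98-fold), the uridine-cytidine kinase gene uck2a had 42.6 and 8.66 TPM (5.57-fold), and aldh18a1, an enzyme gene of proline synthesis, had 13.6 and 3.24 TPM (4.43-fold). The protease gene ctsa, which does belong to the lysosome list, had 59.5 and 19.2 TPM (3.61-fold). With only the most abundant transcript of the gene it was not counted as higher. On the lower side, ufc1, which conjugates a ubiquitin-like protein, had 1.26 TPM in the rbm14 and 8.87 TPM in the control library (4.60-fold). Genes listed at 0 TPM in a library were 5 for the control and 4 for the rbm14 library, among them SNORA53 at 9.69 TPM in the rbm14 library and BX936423.1 at 9.42 TPM in the control library. Levels of small RNAs such as SNORA53 are uncertain in libraries of poly(A) RNA. Of the 668 counted genes, 98 higher and 121 lower ones carry clone-based or locus-based symbols. Over all 7321 members 1143 carry such symbols, so they are more frequent among the counted genes.

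The deposited values are per transcript, so a gene can keep its sum while its composition differs. Of 2796 genes with more than 1 transcript and at least 10 TPM in both libraries, 126 had a different most abundant transcript, and for 10 of these the share of that transcript differed by at least 50 percentage points, which is 0.358% of the 2796 genes. The nucleophosmin gene npm1a, which encodes a nucleolar chaperone, had 98.1% of its TPM in ENSDART00000133304 in the rbm14 library and 4.62% in the control library, with 716 and 533 TPM over the gene. The antizyme gene oaz1b, a brake on polyamine synthesis, had 81.6% in ENSDART00000171800 in the rbm14 library and 0.028% in the control library. For both genes the difference had the same direction at 24 hpf, with 99.8% and 7.86% for npm1a and 74.6% and 0.089% for oaz1b.

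In the further genes cbll1, ctsa and tcf20 the direction turned round at 24 hpf. The m6A writer component cbll1 had 73.3% of its TPM in its rbm14 main transcript in the rbm14 library and 0.631% in the control library at 10 hpf, and 1.06% and 82.4% in the same order at 24 hpf. The lysosomal carboxypeptidase gene ctsa had 54.4% in the rbm14 and 0% in the control library at 10 hpf, and 38.5% and 73.7% at 24 hpf. For tcf20 the shares were 83.2% and 0% at 10 hpf, and 58.0% and 77.2% at 24 hpf, in the same order. The ATP synthase gene atp5j kept its direction, with 65.9% in the rbm14 and 9.82% in the control library at 10 hpf and 38.5% and 3.85% at 24 hpf. Transcript values are estimates from reads that several transcripts share, and a value listed at 0 can be a failed estimate, so these shares are less certain than sums.

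**Figure D4:**
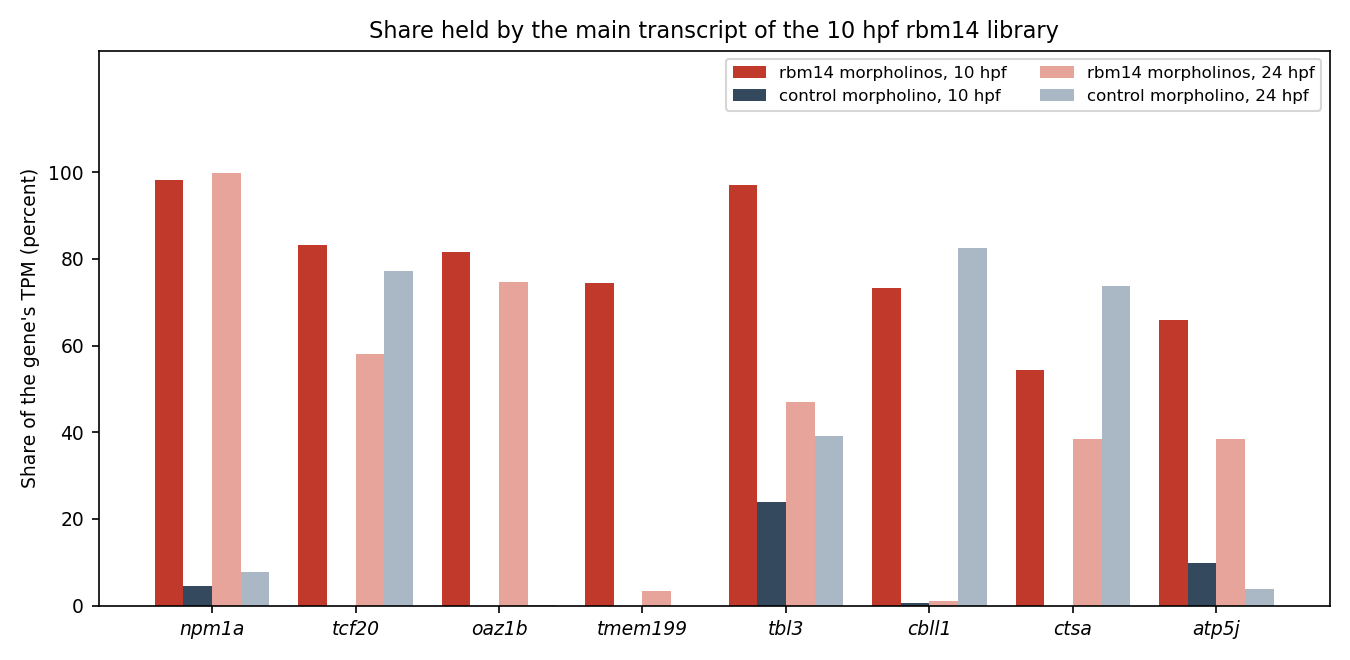
Percent of the gene's TPM held by the transcript that was most abundant in the 10 hpf rbm14 library, in the rbm14 and control libraries at 10 hpf (dark bars) and at 24 hpf (light bars), for the 8 genes with a standard symbol. The difference is present at both stages for npm1a (98.1% and 4.62% at 10 hpf) and oaz1b, and turns round at 24 hpf for cbll1, ctsa and tcf20.

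The 24 hpf pair shares no library with the 10 hpf pair and shows how the 10 hpf differences looked a stage later. There 9121 genes had at least 5 TPM, and after rescaling 639 (7.01%) of them were higher and 807 (8.85%) lower, 1446 (15.9%) in all. Of the 261 genes higher at 10 hpf, 31 were higher at 24 hpf as well, which is 11.9% of the 10 hpf list and 4.85% of the 24 hpf list. Of the 407 lower genes 47 were lower again, 11.5% of the 10 hpf list and 5.82% of the 24 hpf list. A further 22 genes were past 2-fold in opposite directions, 11 each way. Many early genes had left the measured range, as 160 of the 261 and 309 of the 407 still had at least 5 TPM at 24 hpf.

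Shared higher genes at both stages included ccnt2b (log2 ratios of 1.89 at 10 hpf and 1.71 at 24 hpf), the growth factor igf2a (1.59 and 1.79), the sterol enzyme cyp51 (1.85 and 1.61) and the zinc finger gene znf1025 (1.86 and 1.85). The DNA damage response list had 15 higher and 2 lower of the same 34 members at 24 hpf, with a median of 0.69. At that stage fosab stood at 167 TPM in the rbm14 and 4.41 TPM in the control library (4.49). Shared lower genes included hbbe1.1 (−3.12 and −5.15), tfa (−2.10 and −2.67), the small Cajal body RNA SCARNA2 (−2.92 and −3.00), the myelin protein gene pmp22a (−1.69 and −1.72) and ankrd9 (−1.85 and −1.90). The level of a small RNA such as SCARNA2 is uncertain in libraries of poly(A) RNA.

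Genes that were lower at 10 hpf had mixed fates. At 24 hpf her15.1 (131 TPM in the rbm14 and 175 TPM in the control library, log2 ratio −1.05), her15.2 (−1.71), olig4 (−1.28), tuba1a (−1.44), tuba1b (−2.49) and tubb5 (−1.17) were lower again after rescaling. In contrast neurog1 had 108 TPM in the rbm14 and 116 TPM in the control library (−0.74). The genes hoxb1a (81.1 and 35.6 TPM, 0.54) and lamb1a (38.0 and 14.7 TPM, 0.71) had positive ratios. All were between the limits after rescaling, although hoxb1a and lamb1a were more than 2-fold higher in the rbm14 library as deposited. After rescaling the Nodal gene gdf3 was near equal by then (0.08), with 6.14 and 3.70 TPM as deposited. The tubulin list had 6 lower members and none higher at 24 hpf, with a median of −1.06, while the ribosomal protein list, without any gene past 2-fold at 10 hpf, had 65 lower members and a median of −1.23. The 24 hpf ratios are after rescaling, which removed a shift of 0.64 in log2, and calls without it are not given at that stage. As deposited at 24 hpf, some of these lower genes differed by less than 2-fold and others by more. The genes tubb5 (108 TPM in the rbm14 and 157 TPM in the control library) and rps3 (781 and 1252 TPM) were among the former. The gene tuba1b (68.6 and 249.9 TPM) was among the latter.

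**Figure D5:**
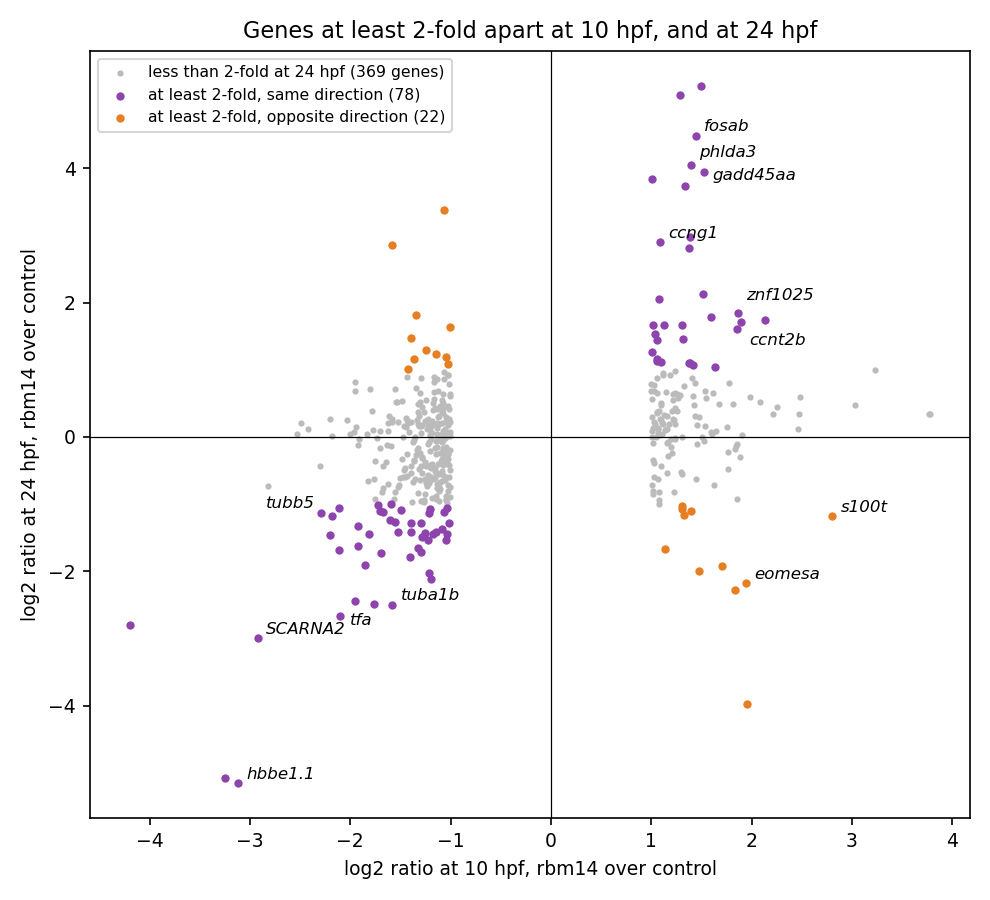
Log2 ratio of the rbm14 over the control library at 10 hpf (horizontal) and at 24 hpf (vertical) for genes at least 2-fold higher or lower at 10 hpf with at least 5 TPM at 24 hpf; purple points are past 2-fold in the same direction at both stages and orange points in opposite directions. There are 78 purple and 22 orange points, with DNA damage response genes such as phlda3 at the upper right and hbbe1.1 and tfa at the lower left.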

How the data were processed

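The files hold TPM as deposited by the authors, 1 value for each of 57596 Ensembl transcript IDs together with its symbol. That the unit is TPM follows from the totals of 1000000. The submitters' processing notes list HISAT2 2.0.1, HTSeq 0.6.1, Trimmomatic 0.30 and build GRCz10 without roles. Which tool made the transcript values, from which annotation and with what strand option, is not given in the sources used here. Since TPM keeps no depth, no counting interval was computed, and genes whose reads could be shared with a close copy or an overlapping gene are uncertain.

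Transcripts were summed by symbol. At each stage an unweighted trimmed mean of the log2 ratios set the scale (9974 genes with at least 1 TPM in both 10 hpf libraries, trimming 30% of ratios and 5% of levels at each end), the shift being divided evenly over both libraries, and 0.5 TPM was added, which understates the ratios of low genes. The shift was −0.25 at 10 hpf and 0.64 at 24 hpf, rbm14 over control. A fold of 2 and a minimum of 5 TPM defined higher and lower genes, without a test. The calculation was tested on simulated data. Python 3.11.15, pandas 2.3.3, numpy 2.4.6, statsmodels 0.14.6 and matplotlib 3.10.9 were used.

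The members and the 58 gene lists were chosen with earlier results of these data known, so a list's count or median is a description. Of 2487 distinct listed names, 2348 matched a symbol or pattern, 55 matched through a synonym in a reference table of assembly GRCz12tu, and 84 did not match. No coordinates or sequences were used. A few list members are counted but not reported here by name. Genes named were the 20 highest and 20 lowest with a standard symbol, list members past 2-fold and up to 6 of the largest ratio per list, fixed axis genes, the 10 most abundant, and up to 10 each for transcript differences, both stages and values of 0; other list members, and lhx5 and the further genes nearest to 2-fold, were added as examples after their values were seen. Alternatives were no rescaling, median-of-ratios scaling, removal of the trend of ratio with level (loess), other pseudocounts, minimum levels and folds, and the most abundant transcript per gene.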

Additional observations from a re-analysis of the deposited data

Results flagged for a closer look

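After rescaling, a few of the named genes were past 2-fold in opposite directions at 10 and at 24 hpf. With 1 library per group this difference between stages was not tested. The T-box gene eomesa had a log2 ratio of 1.948 at 10 hpf (8.31 TPM in the rbm14 and 2.16 TPM in the control library) and −2.17 at 24 hpf (6.65 and 20.65 TPM in that order). The calcium-binding gene s100t had 2.8037 at 10 hpf and −1.18 at 24 hpf, when it stood at 13.5 TPM in the rbm14 and 20.05 TPM in the control library. The securin gene pttg1 had 1.3075 and −1.03, and the lactate transporter gene slc16a3 had 1.3234 and −1.16, at 10 and 24 hpf. The matrix gene emilin3a ran the other way, −1.0059 at 10 hpf and 1.64 at 24 hpf, where it had 300.4 TPM in the rbm14 and 61.4 TPM in the control library. At 10 hpf emilin3a was within 0.01 of the 2-fold limit and was not counted as lower after removal of the trend with level. As deposited at 24 hpf, pttg1 had 18.5 TPM in the rbm14 and 24.6 TPM in the control library, and slc16a3 had 8.21 and 12.3 TPM. These genes and s100t were thus lower by less than 2-fold at 24 hpf before rescaling.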

How the results depend on the processing

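The counts of higher and lower genes kept within 1.5 times of 261 and 407 with median-of-ratios scaling (255 and 411), loess (264 and 310), a pseudocount of 0.1 TPM (284 and 465) and the most abundant transcript (269 and 401). They were 155 and 676 without rescaling, 126 and 93 with a pseudocount of 5 TPM, 501 and 1013 with a minimum of 1 TPM, 112 and 86 with one of 20 TPM, 908 and 1004 at 1.5-fold, and 37 and 44 at 4-fold; the last 4 settings change which genes qualify. Lowering the share difference to 30 percentage points gave 31 genes with another main transcript, against 10. The ratio of fn1b turned to 0.22 with its most abundant transcript; the cause was not tested. Of 376 named genes, 51 moved by more than 1.5-fold or lost or gained a 2-fold call without rescaling, 33 with loess and 109 with a pseudocount of 5 TPM. Medians of the 57 lists with members moved by less than 1.5-fold under all 8 alternatives, although small ones change sign without rescaling. No paired analysis was possible because each group has 1 library and the labels carry no replicate numbers. Depth is unknown, so no detection limit can be given.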
